A study of Homo sapiens with 4 samples.

Results

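Interferon-stimulated genes are the antiviral and immune genes that cells switch on in response to interferon. The 45 described here were taken by gene name from a list that leaves out the IFITM family, and all 45 are among the 60617 genes of the files. The cells were U87MG, an established line derived from a human glioblastoma. They grew as spheres in DMEM/F12 with N2, 2% B27, EGF at 20 ng/ml and bFGF at 20 ng/ml, and were collected at day 14. The groups were untreated spheres (2 libraries) and spheres treated with abemaciclib (2 libraries), a drug that inhibits the cell cycle kinases CDK4 and CDK6. Neither the abemaciclib dose nor any vehicle given to the untreated spheres is stated in the labels used here. Both groups come from 1 line, and nothing in the labels says that the libraries are separate cultures, so p-values reflect library-to-library spread alone, possibly of technical origin.

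In the classical pathway, type I interferons bind the receptor IFNAR1 and IFNAR2, and the kinases JAK1 and TYK2 phosphorylate STAT factors, among them STAT2. With IRF9 these bind a promoter sequence known as the interferon-stimulated response element (ISRE). Interferon gamma acts mainly through a different sequence, the gamma-activated site (GAS). The induced proteins detect viral RNA, block translation, degrade RNA, hold virus particles at the membrane or tag proteins with ISG15.

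Of the 45 genes, 43 had enough counts to be tested, and they moved in both directions. After abemaciclib 20 rose and 12 fell, and 11 did not pass the threshold (adjusted p under 0.05 in the quasi-likelihood test of edgeR, with Benjamini-Hochberg adjustment over all 17207 tested genes). That is 74.4% called, beside 77.3% of all tested genes. The share that rose was 46.5%, against 38.0% of all tested genes, and the share that fell was 27.9%, against 39.3%. At least 2-fold increases were seen in 13 of the 43 (30.2%, background 13.8%) and 2-fold or larger falls in 6 (14.0%, background 17.4%). For 35 of the 43 genes (81.4%) the untreated and treated libraries did not overlap, beside 87.9% of all tested genes. The median log2 fold change was 0.03 over the 43 genes and -0.01 over all tested genes, and the 43 ranged from -6.02 (ISG20) to 4.77 (SP140).

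**Figure D1:**
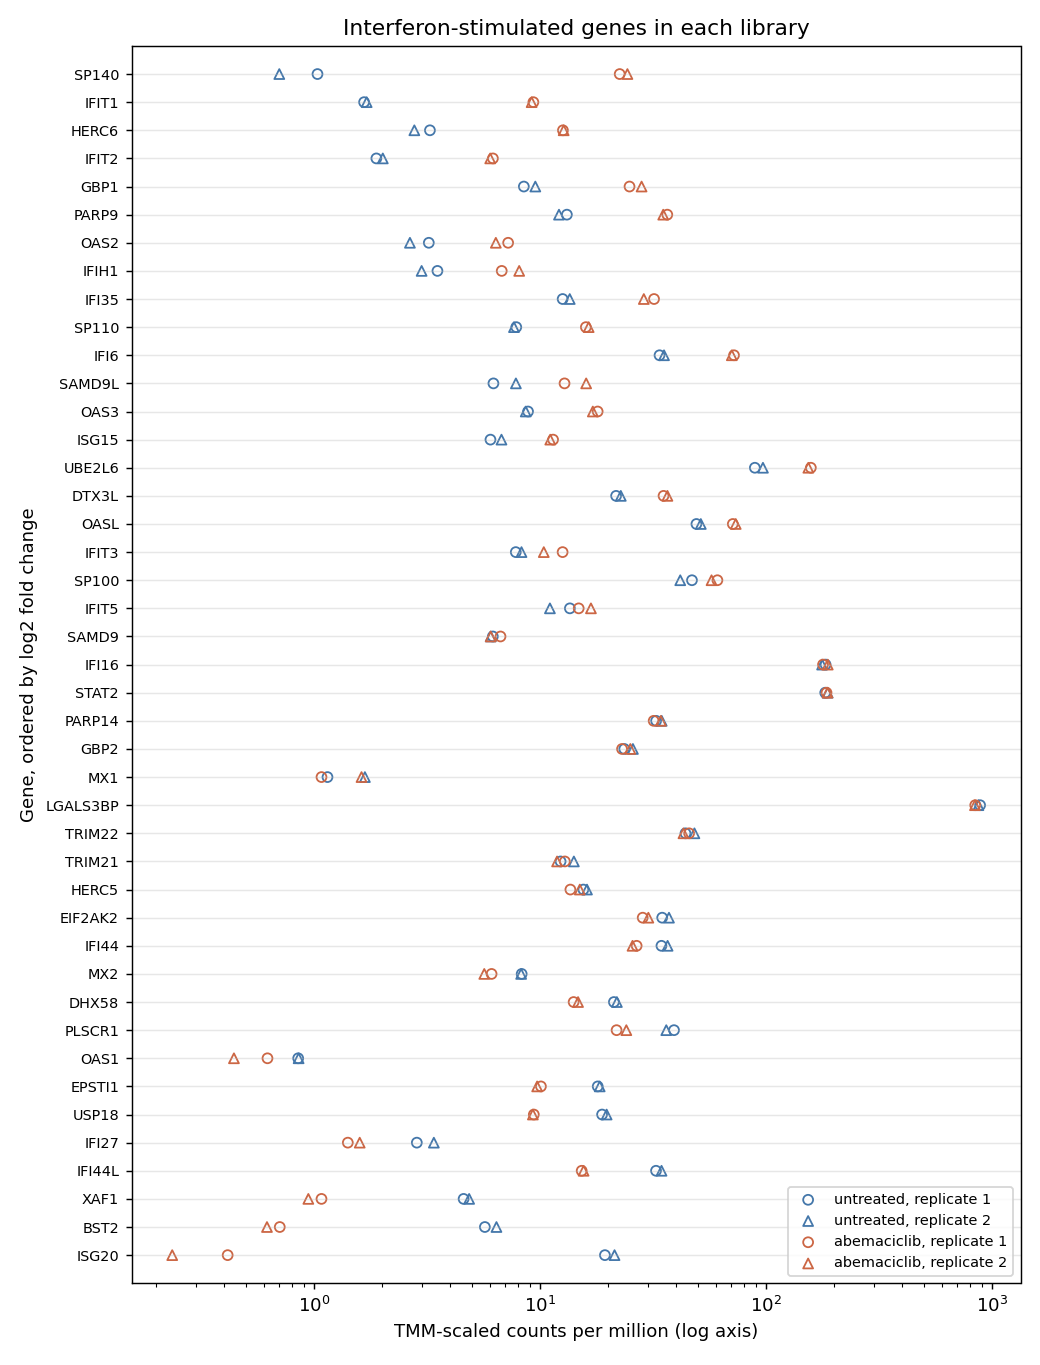
TMM-scaled CPM (counts divided by library depth, log axis) of the 43 tested genes in each library; circles are replicate 1, triangles replicate 2, blue untreated and orange abemaciclib. Genes run from SP140 (log2 fold change 4.77) at the top to ISG20 (-6.02) at the bottom, and replicates of a group lie close together beside the gaps between groups at either end.

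The ISRE core was searched on both strands as GAAA, any 2 bases and GAAA in 300-base RefSeq promoters (build GRCh38.p14, 250 bases before to 50 after the gene's start). Of the 45 genes 37 had a promoter in that table, and 23 of these (62.2%) held the core, beside 3.57% of all 35116 promoters. Below are sites from genes that rose, genes that fell and genes that did not pass, to show the same core on both sides of the comparison. Each is a 30-base window on the gene's strand with the core in capitals; TTTC at the left marks a core on the opposite strand.
Rose, IFIT1, chr10:89392510-89392539, plus strand, in an intron of LIPA: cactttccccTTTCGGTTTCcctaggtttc
Rose, ISG15, chr1:1013380-1013409, plus strand, in an intron of a longer ISG15 model: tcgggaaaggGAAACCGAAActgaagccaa
Rose, IFI6, chr1:27672266-27672295, minus strand, in an intron of AL445490.1: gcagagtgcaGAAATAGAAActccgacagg
Fell, ISG20, chr15:88638937-88638966, plus strand, in an exon of a longer ISG20 model: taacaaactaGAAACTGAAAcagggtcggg
Fell, BST2, chr19:17405735-17405764, minus strand, in exons of BISPR and MVB12A: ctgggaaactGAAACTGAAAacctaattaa
Fell, IFI27, chr14:94110631-94110660, plus strand, in an intron of a longer IFI27 model: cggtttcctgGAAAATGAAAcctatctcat
Fell, EPSTI1, chr13:42992272-42992301, minus strand, between genes: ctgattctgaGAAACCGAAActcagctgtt
Not past the threshold, HERC5, chr4:88457035-88457064, plus strand, between genes: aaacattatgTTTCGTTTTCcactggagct
Not past the threshold, SAMD9, chr7:93118096-93118125, minus strand, between genes: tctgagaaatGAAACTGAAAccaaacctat
The core begins 103 bases before the start in IFIT1, 107 in ISG15, 93 in IFI6, 69 in ISG20, 124 in BST2, 95 in IFI27, 50 in EPSTI1, 74 in HERC5 and 136 in SAMD9.

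Genes with and without the core were found on both sides. Among the called genes with a promoter in the table, the core was present in 9 of 17 that rose and 8 of 9 that fell, and it was present in 6 of 9 that did not pass. The 23 tested genes with the core had a median log2 fold change of -0.05, with 9 higher and 8 lower. The 12 tested genes without it had a median of 0.89, with 8 higher and 1 lower, and they include SP140, HERC6 and PARP9. The GAS letters (TTC, any 3 bases and GAA), which read the same on both strands, were present in 7 of 37 promoters (18.9%, beside 7.66% of all promoters). They were in 1 of 17 that rose, 4 of 9 that fell and 2 of 9 that did not pass. In 3 of the 45 genes a GAS match overlaps an ISRE match, and these count under both. A match is a description of these letters in this window only.

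**Figure D2:**
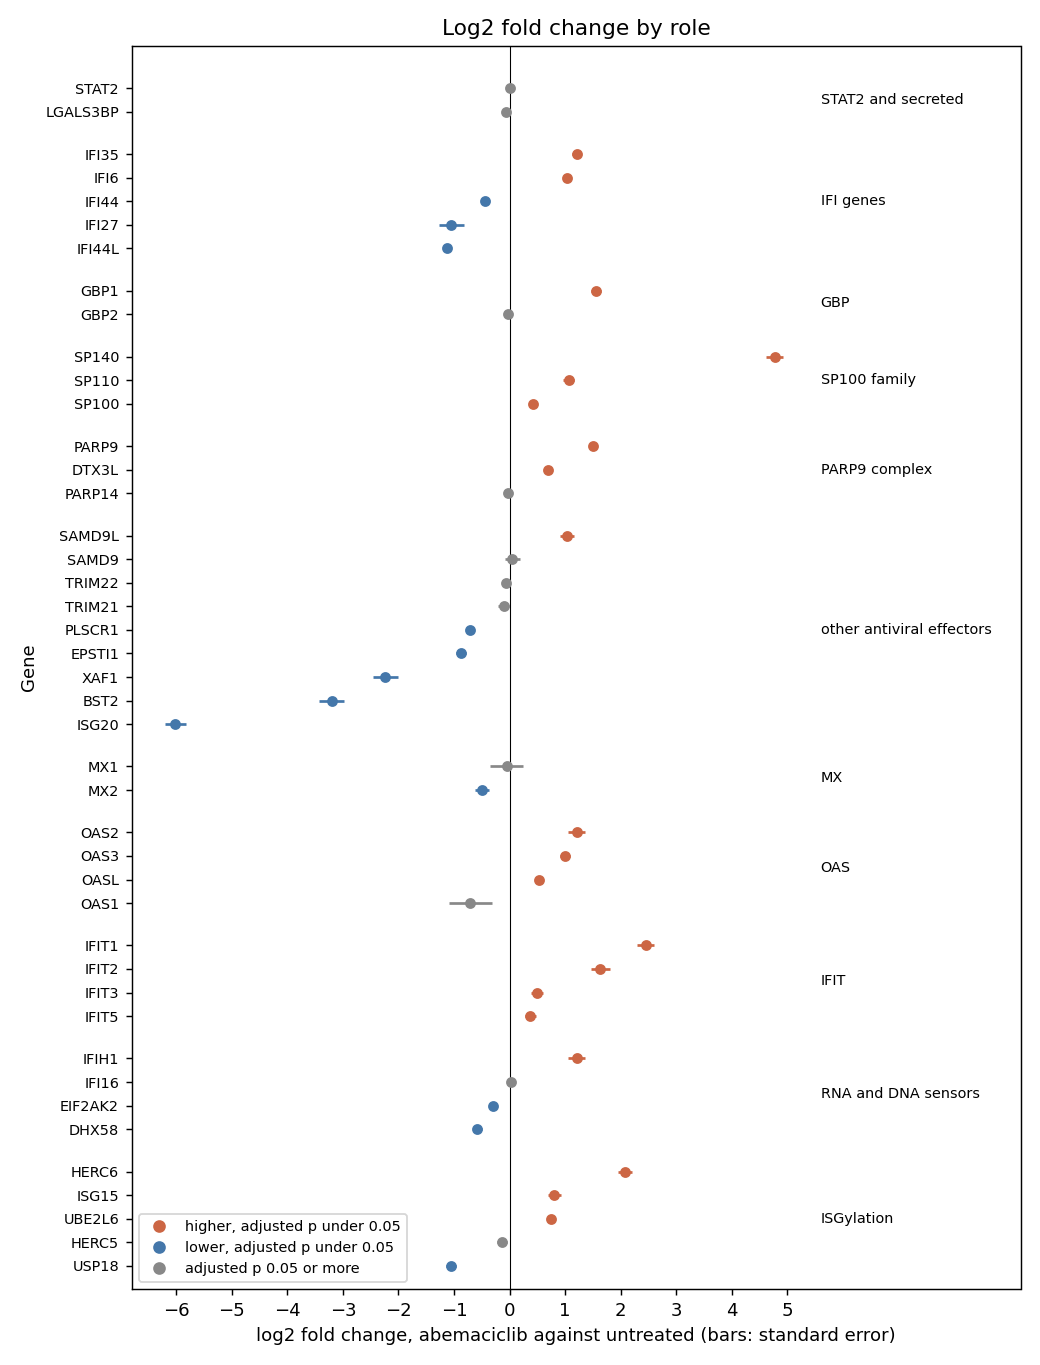
Log2 fold change of the 43 tested genes, abemaciclib against untreated, grouped by role, with bars for the standard error from the edgeR fit. The IFIT and SP100 groups lie wholly to the right of 0, while the other antiviral effectors run from SAMD9L (1.04) to ISG20 (-6.02).

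The ISG15 conjugation system split by step. ISG15 is the ubiquitin-like tag, and it had 6.04 and 6.75 CPM in the untreated libraries and 11.4 and 11.1 CPM after abemaciclib. The treated libraries were both above the untreated ones, and ISG15 rose by 0.81 ± 0.11 (log2 fold change ± SE, edgeR adjusted p = 1.46e-07). UBE2L6, its conjugating enzyme, went from 89.2 and 96.8 to 158 and 154 CPM (0.74 ± 0.04, edgeR adjusted p = 4.01e-17). HERC6, a HERC-family ligase gene, had 3.26 and 2.78 CPM untreated and 12.6 and 12.7 CPM after the drug, and it rose by 2.08 ± 0.13 on the log2 scale. HERC5, the main human ligase for ISG15, had 15.6 and 16.1 against 13.6 and 15.0 CPM and did not pass (-0.14 ± 0.09, edgeR adjusted p = 0.140). USP18, the protease that removes ISG15 and also damps the receptor, went from 18.8 and 19.7 to 9.39 and 9.30 CPM. It fell by 1.05 ± 0.09 on the log2 scale (edgeR adjusted p = 6.00e-12), so the tag and its remover moved in opposite directions. USP41, a close copy of USP18, held 13 and 20 counts untreated and 3 and 11 after the drug, and the counting may have shared reads between them.

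Of the 4 sensors and RNA-dependent regulators, 1 rose, 2 fell and 1 did not pass the test. IFIH1 (MDA5), a sensor of long double-stranded RNA, rose from 3.52 and 2.99 to 6.77 and 8.09 CPM (1.21 ± 0.15, edgeR adjusted p = 1.70e-08). DHX58 (LGP2), which modulates MDA5 and RIG-I, fell from 21.2 and 21.9 to 14.1 and 14.7 CPM (-0.58 ± 0.08). EIF2AK2 (PKR), the kinase that halts translation on double-stranded RNA, had 34.7 and 37.2 CPM against 28.5 and 30.1 CPM and fell slightly (-0.29 ± 0.06). IFI16, a DNA sensor, stood at 183 and 177 CPM untreated and 179 and 187 CPM after the drug, and these libraries overlapped (0.03 ± 0.03, edgeR adjusted p = 0.504). IFI16 was called higher only when libraries were scaled by their totals alone (0.08 ± 0.03, edgeR adjusted p = 0.0373, range over its 9 alternatives 0.0373 to 0.963).

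All 4 IFIT genes, whose proteins bind viral RNA and block its translation, rose. IFIT1 had 1.67 and 1.71 CPM untreated and 9.35 and 9.18 CPM after the drug. Its groups were far apart beside the spread of replicates (2.45 ± 0.16, edgeR adjusted p = 4.06e-15). IFIT2 went from 1.89 and 2.02 to 6.19 and 6.02 CPM (1.64 ± 0.17). Smaller changes were seen for IFIT3, from 7.81 and 8.28 to 12.6 and 10.4 CPM (0.50 ± 0.11), and IFIT5, from 13.6 and 11.1 to 14.8 and 16.8 CPM (0.38 ± 0.10). The IFIT5 call was lost without untreated replicate 2 (0.23 ± 0.11, edgeR adjusted p = 0.0600) and with DESeq2 (0.38 ± 0.17, adjusted p = 0.0529), and its adjusted p ranged from 8.90e-06 to 0.0600 over 9 alternatives. IFIT2 shares exon sequence with AL353751.1 on its strand, which held 0 to 7 counts per library. It also shares 65 exonic bases with LIPA on the opposite strand. LIPA held 1640 and 2018 counts untreated and 3447 and 4959 after the drug (1.24 ± 0.04). Whether the counting used strand is not stated. The deposited IFIT2 counts were whole numbers in every library, and whether some of them are LIPA reads was not tested.

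Of the 4 oligoadenylate synthetase genes, whose products signal the presence of double-stranded RNA, 3 rose. OAS2 had 3.22 and 2.66 CPM untreated and 7.23 and 6.38 CPM after the drug (1.21 ± 0.16, edgeR adjusted p = 3.96e-08). OAS3 went from 8.85 and 8.65 to 18.0 and 17.1 CPM (1.00 ± 0.09). OASL, a relative without synthetase activity, went from 49.2 and 51.4 to 71.2 and 73.4 CPM (0.52 ± 0.04). OAS1 was near the limit of measurement, with 23 and 28 counts untreated and 15 and 15 counts after the drug. Its log2 fold change of -0.71 ± 0.39 did not pass (edgeR adjusted p = 0.0984).

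The MX GTPases, which trap viral nucleocapsids, did not rise. MX1 had 31 and 55 counts untreated and 26 and 55 after the drug, so the libraries overlapped (-0.05 ± 0.30, edgeR adjusted p = 0.881). MX2 went from 8.30 and 8.25 to 6.11 and 5.67 CPM (-0.50 ± 0.12, edgeR adjusted p = 5.84e-04), a call that DESeq2 did not make (adjusted p = 0.0584, range over 9 alternatives 4.69e-04 to 0.0584). RSAD2 (viperin) and its neighbour CMPK2 had too few counts to test. RSAD2 held 6 and 0 counts untreated and 10 and 5 after the drug, and CMPK2 1 and 4 against 2 and 6. A count of 3 corresponds to 0.0898 to 0.127 CPM in these libraries, and no change of either gene was established at this depth. Without untreated replicate 1, where RSAD2 passed the filter, its remaining untreated library was at 0 counts and the gene was called higher (edgeR adjusted p = 0.00929). In the other 4 alternatives that tested RSAD2 the adjusted p was 0.0803 to 0.822, so that call rests on 1 library.

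The largest falls of the 43 genes were among the other antiviral effectors. ISG20, an RNA exonuclease (ENSG00000172183, GRCh38 chromosome 15, 88636153 to 88656483), had 523 and 699 counts in the untreated libraries and 10 and 8 after abemaciclib. That is 19.4 and 21.4 CPM against 0.415 and 0.236 CPM, and ISG20 fell by 6.02 ± 0.19 on the log2 scale (edgeR adjusted p = 2.53e-23). BST2 (tetherin), which holds budding virus at the membrane, fell from 5.70 and 6.42 to 0.706 and 0.620 CPM (-3.20 ± 0.22, edgeR adjusted p = 3.51e-14). XAF1, a pro-apoptotic antagonist of XIAP, fell from 4.59 and 4.86 to 1.08 and 0.945 CPM (-2.23 ± 0.22). For these 3 genes each treated library lay several-fold below each untreated one. PRAL, which overlaps XAF1 on the opposite strand, had 0 counts in every library.

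Smaller falls were seen for EPSTI1, from 18.0 and 18.4 to 10.1 and 9.71 CPM (-0.88 ± 0.09), and for the scramblase PLSCR1, from 39.1 and 36.2 to 21.8 and 24.1 CPM (-0.70 ± 0.07). SAMD9L, a restriction factor of poxviruses, was the one gene of this group that rose, from 6.22 and 7.82 to 12.8 and 16.0 CPM (1.04 ± 0.12, edgeR adjusted p = 7.44e-08). Its neighbour SAMD9 had 6.19 and 6.05 CPM untreated and 6.69 and 6.05 CPM after the drug, with overlapping libraries (0.05 ± 0.13). TRIM21, the cytosolic antibody receptor, had 12.3 and 14.1 CPM untreated and 12.9 and 11.9 CPM after the drug (-0.11 ± 0.10). The restriction factor TRIM22 had 44.0 and 48.2 against 45.7 and 43.1 CPM (-0.06 ± 0.05), and both genes overlapped between groups.

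PARP9 and DTX3L form a complex of an ADP-ribosyltransferase family member and a ubiquitin ligase. PARP9 went from 13.1 and 12.1 to 36.6 and 35.1 CPM (1.50 ± 0.07, edgeR adjusted p = 3.48e-18), and DTX3L from 21.7 and 22.8 to 35.2 and 36.6 CPM (0.69 ± 0.06). PARP14, a relative in the same region, had 32.6 and 34.5 CPM against 31.8 and 34.2 CPM and did not pass (-0.02 ± 0.06). The 3 nuclear body genes of the SP100 family rose by different amounts. SP140, a chromatin reader best known from leukocytes (ENSG00000079263, GRCh38 chromosome 2, 230203110 to 230313215), had 1.04 and 0.703 CPM untreated and 22.5 and 24.4 CPM after the drug. This was the largest increase of the 43 genes (4.77 ± 0.15, edgeR adjusted p = 2.28e-23). SP110 went from 7.85 and 7.67 to 16.0 and 16.4 CPM (1.06 ± 0.10) and SP100 from 47.0 and 41.7 to 60.9 and 57.4 CPM (0.42 ± 0.05). SP140 and SP110 share 170 exonic bases on opposite strands, and PARP9 and DTX3L share 217. Whether the counting used strand is not stated in the labels or files. The deposited counts of PARP9, DTX3L and SP110 were whole numbers in every library, and those of SP140 were not. Whether any reads were exchanged within a pair was not tested.

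Because SP140 is a leukocyte gene, markers of other cell types were read beside it. Of 8 lymphoid markers, MS4A1 had 0 counts in all libraries, and the summed level was 0.978 to 1.11 CPM untreated and 0.166 to 0.266 CPM after the drug. Of 10 myeloid markers AIF1 had 0 counts throughout, and TYROBP had 0 to 2 counts per library. The myeloid sum rose from 516 to 525 CPM untreated to 1081 to 1109 CPM, nearly all of it CD68, a lysosomal protein (1.10 ± 0.03). Of the 5 myeloid markers that could be tested, 3 were called higher and 2 lower. Besides CD68, PTPRC (CD45) rose from 4 and 3 to 18 and 14 counts (2.21 ± 0.59) and CD163, a macrophage scavenger receptor, from 11 and 9 to 31 and 51 counts (2.05 ± 0.39). CSF1R, the receptor of a macrophage growth factor, fell from 10.9 and 11.5 to 5.77 and 5.31 CPM (-1.02 ± 0.12), and CD14, a co-receptor for lipopolysaccharide, from 19 and 21 to 6 and 12 counts (-1.11 ± 0.45, edgeR adjusted p = 0.0260). The part of these markers in the SP140 value was not tested. In bulk RNA, fewer cells that express a gene and less RNA per cell cannot be told apart. Of 8 markers listed for the line, 6 could be tested, and 1 was called higher and 5 lower. VIM (-0.45 ± 0.04), CD44 (-1.48 ± 0.03), NES (-0.50 ± 0.04) and EGFR (-0.12 ± 0.04) were well detected and fell. OLIG2 fell by 1.03 ± 0.19, and SOX2 rose from 1 and 2 counts to 11 and 12. GFAP held 4 to 10 counts per library and S100B 0 to 3. CDKN2A, which is not among these markers, had 0 counts.

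Guanylate-binding proteins attack the vacuoles of pathogens. GBP1 rose from 8.48 and 9.53 to 24.9 and 28.1 CPM (1.56 ± 0.09, edgeR adjusted p = 2.67e-16), whereas GBP2 had 23.6 and 25.8 CPM against 23.1 and 25.1 CPM (-0.03 ± 0.07). IFI6, IFI35, IFI44L, IFI44 and IFI27 were called in both directions. IFI6, a mitochondrial and endoplasmic reticulum protein that limits flavivirus replication, rose from 33.8 and 35.4 to 72.1 and 70.5 CPM (1.04 ± 0.05). IFI35, a partner of NMI, rose from 12.6 and 13.5 to 31.9 and 28.8 CPM (1.21 ± 0.08). IFI44L fell from 32.6 and 34.5 to 15.3 and 15.6 CPM (-1.12 ± 0.07, edgeR adjusted p = 2.63e-15) and IFI44 from 34.4 and 36.7 to 26.8 and 25.7 CPM (-0.45 ± 0.06). IFI27, widely used as a blood marker of interferon exposure, had 77 and 111 counts untreated and 34 and 54 after the drug (-1.05 ± 0.23, edgeR adjusted p = 1.21e-04).

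LGALS3BP, a secreted glycoprotein, and STAT2 were among the 11 genes that did not pass. LGALS3BP had 884 and 869 CPM untreated and 841 and 839 CPM after the drug (-0.06 ± 0.03, edgeR adjusted p = 0.0570), and it was called lower without untreated replicate 2 (-0.08 ± 0.03, edgeR adjusted p = 0.00415, range over 9 alternatives 0.00415 to 0.818). Per kilobase of annotated exon it was the most abundant of the 45 in both groups, at 245 and 234 CPM per kb. Next in untreated spheres came UBE2L6 (42.3 CPM per kb), IFI6 (40.0), IFI16 (34.0) and STAT2 (30.3), and after abemaciclib IFI6 (82.4) and UBE2L6 (70.9). The level of SP140 went from 0.156 to 4.20 CPM per kb, and that of ISG20 from 2.77 to 0.0443 CPM per kb.

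Many of these genes lie beside a relative, and neighbours were compared by the ratio of their counts within each library, in pairs picked after their values were known. On chromosome 4 HERC6 and HERC5 lie 14.0 kb apart, and the log2 ratio of HERC6 to HERC5 counts was -2.25 and -2.53 untreated and -0.11 and -0.24 after the drug. Their log2 fold changes differed by 2.22 ± 0.16 (SE of the difference). For GBP1 over GBP2, 40.8 kb apart on chromosome 1, the log2 ratio went from -1.47 and -1.43 to 0.11 and 0.16, so GBP1 passed GBP2 in counts. For SAMD9L over SAMD9, 12.0 kb apart on chromosome 7, it went from 0.01 and 0.37 to 0.94 and 1.40. In the IFIT cluster of chromosome 10, IFIT1 over IFIT5 went from -3.01 and -2.68 to -0.66 and -0.87.

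The starts of PARP9 and DTX3L lie 339 bases apart on opposite strands, and both genes rose, PARP9 by 0.81 ± 0.10 more on the log2 scale. They share 217 exonic bases, and the counts of both were whole numbers in every library. Whether any of their reads were exchanged was not tested. IFI44L and IFI44, 3.65 kb apart, both fell, IFI44L by more (difference -0.67 ± 0.09). OAS3 and OAS2, 5.14 kb apart, both rose (difference of the log2 fold changes -0.21 ± 0.18), and the log2 ratio of OAS3 to OAS2 counts was 1.45 and 1.70 untreated and 1.31 and 1.42 after the drug. With 2 libraries a group an exact permutation test (two-sided) of such a ratio cannot go below p = 0.333, so these differences are described by their values and SE.

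**Figure D3:**
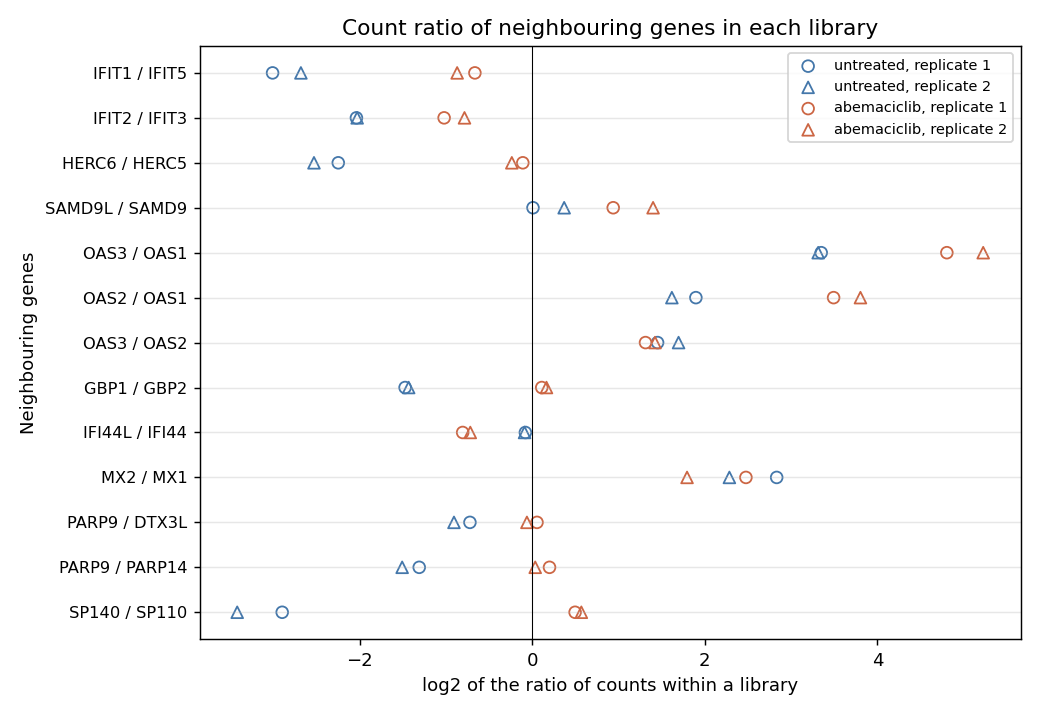
Log2 of the ratio of counts of neighbouring genes within each library, first gene over second; blue untreated, orange abemaciclib, circles replicate 1 and triangles replicate 2. The groups are apart for HERC6 over HERC5, GBP1 over GBP2 and SP140 over SP110, they are close together without overlap for OAS3 over OAS2, and they overlap for MX2 over MX1.

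Upstream of these genes, no interferon transcript was seen. All 22 interferon genes of the list, 17 of them on chromosome 9, had 0 counts in the 4 libraries, and the limit that a count of 0 allows is 0.0898 to 0.127 CPM per gene and library. On the same chromosome MTAP and CDKN2B, neighbours of CDKN2A, held 1 count each over all libraries. The receptor subunit IFNAR1 (0.03 ± 0.05) and the kinase JAK1 (0.03 ± 0.04) did not pass, while IFNAR2 (-0.38 ± 0.08) and TYK2 (-0.44 ± 0.04) fell. Of 11 genes for receptors, JAK kinases and STAT factors 1 rose and 7 fell, and 3 did not pass. The largest falls were those of the interferon lambda receptor IFNLR1, from 27 and 33 counts to 4 and 8, and the interferon gamma receptor subunit IFNGR2 (-1.11 ± 0.05). JAK1 was called higher when libraries were scaled by their totals alone.

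STAT2 and its partner IRF9 differed. STAT2 had 183 and 187 CPM untreated and 185 and 187 CPM after the drug (0.01 ± 0.03, edgeR adjusted p = 0.824). IRF9 fell from 33.3 ± 0.399 to 22.9 ± 0.530 CPM (mean ± SD, n = 2 libraries; -0.54 ± 0.06, edgeR adjusted p = 5.63e-09). Of 7 tested interferon regulatory factors 1 rose and 6 fell. IRF7, which amplifies type I interferon, went from 29.2 ± 0.190 to 2.89 ± 0.0313 CPM (-3.34 ± 0.10, edgeR adjusted p = 2.87e-23) and IRF5 fell by 2.23 ± 0.46.

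Nucleic acid sensing genes were higher in 8 of 15 tested, lower in 4 and not past the threshold in 3. DDX58 (RIG-I), the sensor of RNA with a 5′ triphosphate, rose from 217 and 266 to 634 and 936 counts (1.74 ± 0.09), as did the kinase IKBKE (1.73 ± 0.09). The DNA sensor AIM2 was among those that fell (-0.75 ± 0.07). Of 8 feedback inhibitors 3 rose and 4 fell. SOCS3 (-3.48 ± 0.04) and CISH (-2.80 ± 0.32) fell furthest, and SOCS1, which blocks JAK1 and TYK2, rose by 0.45 ± 0.10.

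Other interferon-inducible families differed in their balance. All 4 tested IFITM genes fell, with a median log2 fold change of -3.81, beside 0.03 for the 43 genes described here. MHC class I and peptide loading genes were higher in 6 of 16 and lower in 10 (median -0.27), with HLA-B (-1.42 ± 0.03) and HLA-C (-1.20 ± 0.03) lowest and PSME2 (1.45 ± 0.04) and ERAP2 (1.24 ± 0.05) highest. A further 35 tested interferon-stimulated genes outside the 45 were higher in 19, lower in 11 and not past the threshold in 5 (median 0.38). Among them RTP4 rose from 4 and 6 counts to 17 and 16, and SLFN12 rose by 1.60 ± 0.16. GBP4 fell from 10 and 24 counts to 6 and 1, and MLKL, the executor of necroptosis, fell by 1.20 ± 0.09. Differences between these lists were not tested.

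**Figure D4:**
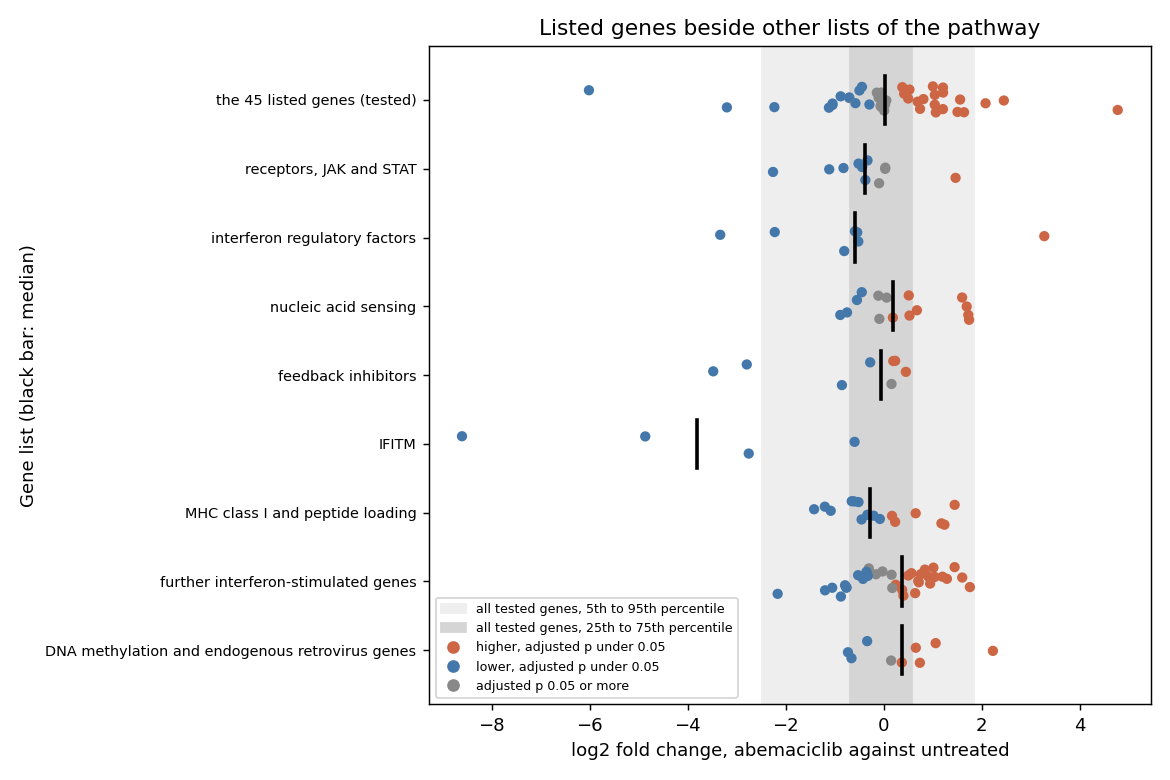
Log2 fold change, abemaciclib against untreated, of each tested gene in the 45-gene list and 8 other lists; black bars are medians and grey bands hold the middle of all tested genes (5th to 95th and 25th to 75th percentile). The 45-gene list spreads to both sides around a median of 0.03, and the IFITM genes all lie below 0.

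DNA methylation and endogenous retrovirus genes were listed because loss of methylation can expose retroviral RNA to the sensors above. Of 9 tested 5 rose, 3 fell and 1 did not pass. The methylation genes UHRF1 (1.06 ± 0.06), DNMT3B (0.74 ± 0.08) and DNMT1 (0.65 ± 0.04) rose. DNMT3B and DNMT1 were chosen after their values were seen. The histone methyltransferase SETDB1 (-0.73 ± 0.06) and DNMT3A (-0.66 ± 0.07) fell. ERV3-1, an envelope gene of an endogenous retrovirus, rose from 34 and 45 to 147 and 213 counts (2.23 ± 0.19). Most expected counts of the 45 genes were whole numbers, that is, not divided among genes: 41 of 45 were whole in every library, and the exceptions were SP100, SP140, GBP1 and USP18. Across the libraries, totals were 23684260 to 33418075 expected counts, and the share of counts from mitochondrial DNA was 4.27% and 4.66% untreated and 11.8% and 11.7% after the drug. The part of that shift in the values above was not tested.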

How the data were processed

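Messenger RNA was measured in 4 poly-A libraries (TruSeq Stranded mRNA, per the labels' protocols). The deposited values are expected counts, estimated reads per gene not scaled for depth or length, per the file headers. Build GRCh38 and the tools RSEM 1.3.1 and STAR 2.7.2b appear in the submitters' processing notes, without order or settings. The annotation and the strand setting are not given in the sources used here. Expected counts were rounded and tested with edgeR 4.0.16 (R 4.3.3, limma 3.58.1): filterByExpr, TMM scaling, robust quasi-likelihood fit on group, two-sided, Benjamini-Hochberg over 17207 genes. CPM are TMM-scaled. The SE is the absolute log2 fold change over the root of F. Replicates varied by 2.86% (coefficient of variation, from the common dispersion). Replicates differed by more than sampling noise (chi-square per degree of freedom 3.56 and 1.95). Positions, overlaps and exon lengths came from GENCODE release 29 (GRCh38), matched by Ensembl identifier; promoters came from RefSeq (GRCh38.p14), matched by symbol. The limits given for counts of 0 cover counting error only, because the reads carry no molecular identifiers.

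All 45 genes are named. Those changed at least 2-fold, and every gene of a role group called in both directions, are given library by library, and each pathway list by its counts and its most changed genes. The members and lists were chosen with earlier results of these data known. Alternatives were DESeq2 1.42.0, other scalings, no filter, a replicate block and leaving out each library. A few pathway genes meeting this rule are left out here.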

Additional observations from a re-analysis of the deposited data

How the results depend on the processing

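Over 9 alternatives the number of the 45 genes called higher was 19 to 21 (20 as reported) and called lower 11 to 13 (12 as reported), and the median log2 fold change of the listed genes tested lay between 0.03 and 0.13. Leaving out 1 library at a time gave 19 to 21 higher and 12 to 13 lower; DESeq2 gave 19 and 11. The calls that changed were IFIT5, MX2, IFI16, LGALS3BP and RSAD2, given in the report, and no called gene changed sign in these 9. Counts in the pathway lists also changed. With scaling by library totals the receptor, JAK and STAT list had 2 genes higher in place of 1 (JAK1 added). Nucleic acid sensing genes then had 9 higher in place of 8 and 3 lower in place of 4, and MHC class I genes 9 lower in place of 10. Without the filter the further interferon-stimulated genes had 21 higher in place of 19 and 12 lower in place of 11. Leaving out a library also changed counts in several lists. A model with the replicate number as a block (replicate block) called 20 higher and 12 lower, all 32 of them the same genes. The numbers share no stated origin, and the deviations of same-numbered libraries from their group means had a correlation of -0.000220, so they were not treated as pairs. Depth limits RSAD2, CMPK2, MX1 and OAS1 most, each with at most 55 counts in a library. A left-out library leaves 1 in its group, assumed to vary like the other group's.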
